A study of Homo sapiens with 4 samples.

Results

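Protein phosphatase 1 (PP1) was followed through 10 genes, the 3 that encode its catalytic subunits (PPP1CA, PPP1CB, PPP1CC) and 7 that encode regulatory subunits (PPP1R2, PPP1R7, PPP1R8, PPP1R10, PPP1R11, PPP1R12A, PPP1R27). They were found by gene symbol among the 23622 genes of the table, and all 10 were present. The set was chosen by values of the same comparison that is described here, namely the difference between the sh-NC and sh-IRF1 libraries. The members' differences are therefore a description, and no p-value is given for them. The cells were MV4-11, an established human line of acute myeloid leukemia, and the RNA-seq comprised 2 libraries of control cells (sh-NC) and 2 of IRF1 knockdown cells (sh-IRF1). IRF1, interferon regulatory factor 1, is a transcription factor. All 4 libraries carry the genotype label WT. The labels give the sh-NC libraries no treatment and the sh-IRF1 libraries the knockdown. Per the study's methods, hairpins were delivered in the pLKO.1 lentiviral vector and cells were selected with puromycin. The study used hairpins sh-IRF1#1 and sh-IRF1#2, and which of them made each sh-IRF1 library is not given in the sources used here. Nothing in the labels says that libraries of a group came from separate cultures, so p-values measure only the spread between these libraries, which may be technical. In the fit, the spread behind each SE and p-value is drawn largely from other genes of similar level.

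PP1 removes phosphate from serine and threonine residues of a wide range of proteins. The catalytic subunit is made from 3 closely related genes and works in complexes with regulatory subunits, which hold it at a place, choose its substrates or inhibit it. Many of these partners dock onto the same grooves of the enzyme, so they compete for it. PP1 acts in exit from mitosis, in glycogen metabolism, in control of translation through eIF2 alpha, in transcription termination and in relaxation of myosin.

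PPP1CC and PPP1R27 had the largest differences of the 10, in opposite directions. PPP1CC transcripts in sh-IRF1 were at 39.6% of the control mean, and PPP1R27 transcripts were at 2.04 times the control mean. PPP1CA differed by little and PPP1CB was modestly lower. Among the other regulators, differences from the control mean ran from 81.3% of it for PPP1R8 to 127% of it for PPP1R11.

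The values are normalized counts, that is, gene reads scaled by the size factor of their library. The reads behind them, taken as whole multiples of the value of 1 read, summed to between 17635908 and 18695337 per library. IRF1 itself (ENSG00000125347) had 784.7 and 738.5 normalized counts in sh-NC and 429.7 and 431.9 in sh-IRF1, 56.6% of the control mean. Its log2 fold change was -0.82 (SE 0.0904, limma, adjusted p = 1.69e-10, n = 2 per group), and both sh-IRF1 libraries lay below both sh-NC libraries. A share of 22.9% of the exonic bases of IRF1 also lies in the antisense gene IRF1-AS1, which had between 20.6 and 33.9 normalized counts. All 11 myeloid markers looked up (CD33, PTPRC, SPI1, MPO, LYZ, CSF1R, FLT3, ITGAM, ITGAX, HOXA9 and MEIS1) reached 10 normalized counts in every library, and they summed to 32655 and 32707 in sh-NC and to 29108 and 29253 in sh-IRF1. FLT3, a receptor tyrosine kinase, made up the largest part of this sum, with 17391 and 17412 normalized counts in sh-NC and 12745 and 12634 in sh-IRF1. Of the 11, 4 rose (ITGAX, LYZ, ITGAM and SPI1), 4 fell (MPO, PTPRC, FLT3 and CSF1R) and 3 did not pass the test (limma, adjusted p under 0.05). Among all 14120 genes tested, 20.3% rose and 21.9% fell at this threshold. Log2 fold changes ran from -1.42 for MPO (adjusted p = 7.78e-13), the granule enzyme myeloperoxidase, to 1.08 for the integrin gene ITGAX (adjusted p = 1.10e-12). LYZ, which encodes lysozyme, rose by 0.85 (adjusted p = 3.83e-20). Among markers of other cell types, CD3E, EPCAM and HBB were not listed in the table. PECAM1, an endothelial marker that myeloid cells also express, had 1159 and 1399 normalized counts in sh-NC and 3178 and 3120 in sh-IRF1. Whether a change in the state of the cells has a part in the members' differences was not tested. In bulk RNA, fewer cells of a type and less RNA per cell cannot be told apart.

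The target sequences of the hairpins are shown because a hairpin can also lower transcripts that match only its seed. The small RNA pairs with the target, and bases 2 to 8 of the small RNA pair with the capitals.
sh-IRF1#1: gcaccagtgatctGTACAACt
sh-IRF1#2: ggaaattacctgaGGACATCa
Both targets lie in the coding sequence of IRF1, at bases 848 to 868 and 926 to 946 of its reference transcript, and each occurred there 1 time. The 7-base seed site of sh-IRF1#1 was present in 11.4% of 14054 reference transcripts and that of sh-IRF1#2 in 21.8%. In the PP1 genes, sh-IRF1#1 had 1 such site in the 3' UTR of PPP1CC, 1 in the 3' UTR of PPP1R2 and 1 in the coding sequence of PPP1R10. sh-IRF1#2 had 1 in the 3' UTR of PPP1CB and 4 in the coding sequence of PPP1R10. The other 6 members held neither site in the transcript searched. The sites in the UTRs read, with the seed site in capitals:
PPP1CC: cttttttaattcaGTACAACc
PPP1R2: attgatgaattgtGTACAACt
PPP1CB: gcttcatagggatGGACATCa
The PPP1CC site was identical to the target at 9 of 21 positions, seed included, and the PPP1R2 and PPP1CB sites at 11 of 21. The longest unbroken match of either target to any member was 9 bases. The part of these sites in the members' differences was not tested.

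**Figure D1:**
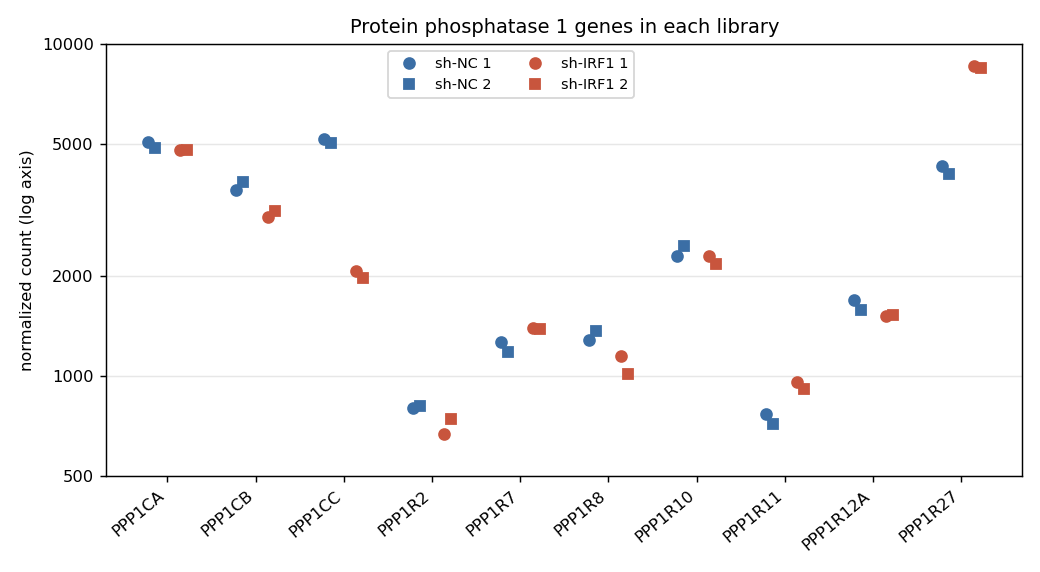
Normalized count (log axis) of each of the 10 PP1 genes in the 2 sh-NC libraries (blue) and the 2 sh-IRF1 libraries (red). Each point is 1 library. Control and knockdown means were 5094 and 2019 for PPP1CC and 4178 and 8517 for PPP1R27, while the points of each remaining gene lie close together.

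PPP1CC (ENSG00000186298, chr12:110719680-110742939, minus strand, GRCh38) encodes the gamma form, which is made as splice variants that differ at their carboxyl end. Normalized counts were 5156 and 5033 in sh-NC and 2063 and 1975 in sh-IRF1, with means of 5094 ± 86.8 and 2019 ± 62.1 (SD, n = 2). Both knockdown libraries lay far below both controls, and the spread within either group was small beside the gap. The log2 fold change was -1.33 (SE 0.0429). Of the 14120 genes tested, 238 had a lower log2 fold change. Leaving out any 1 library kept the log2 fold change between -1.37 and -1.30. No annotated gene shares exonic bases with PPP1CC. Its nearest protein-coding neighbour on the lower-coordinate side, HVCN1, a voltage-gated proton channel gene on the same strand 14729 bases away, had 693.4 and 601.9 normalized counts in sh-NC and 333.2 and 309.2 in sh-IRF1, and fell (log2 fold change -1.01, SE 0.103, limma, adjusted p = 2.30e-11). HVCN1 was looked up after the values of PPP1CC were seen.

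PPP1CB (ENSG00000213639, chr2:28751640-28802940, plus strand) encodes the beta form, the catalytic subunit found with myosin phosphatase. Its normalized counts were 3641 and 3827 in sh-NC and 3002 and 3132 in sh-IRF1, with means of 3734 ± 132 and 3067 ± 92.1 (SD, n = 2). The groups did not overlap, and knockdown libraries held 82.1% of the control mean, a log2 fold change of -0.28 (SE 0.0426). Exons of PPP1CB share 11.9% of their bases with other genes. SPDYA, on the same strand, takes most of that overlap, and it had between 6.15 and 15.9 normalized counts in the 4 libraries. PPP1CB-DT, transcribed from the opposite strand, had 23.6 and 16.4 normalized counts in sh-NC and 6.96 and 1.87 in sh-IRF1. These levels are small beside the counts of PPP1CB.

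PPP1CA (ENSG00000172531, chr11:67398181-67421183, minus strand) encodes the alpha form. It had 5052 and 4873 normalized counts in sh-NC and 4784 and 4787 in sh-IRF1, with means of 4962 ± 127 and 4785 ± 2.43 (SD, n = 2). Knockdown libraries were below both controls, at 96.4% of the control mean, by an amount close to the spread of the controls. The log2 fold change was -0.05 (SE 0.0372). Of its exonic bases 17.97% are shared with RAD9A, TBC1D10C and CARNS1 on the opposite strand. The highest of these, RAD9A, had between 284.1 and 417.8 normalized counts. Whether the reads were counted by strand is not given in the sources used here.

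The catalytic genes have related coding sequences. PPP1CA and PPP1CB were identical at 72.6% of aligned coding positions, PPP1CA and PPP1CC at 73.9%, and PPP1CB and PPP1CC at 74.6%. Per kilobase of exon, PPP1CA made up 49.5% ± 0.745 of the summed catalytic transcripts in control libraries and 62.4% ± 0.103 in knockdown libraries (SD, n = 2). PPP1CC made up 29.97% ± 0.196 and 15.5% ± 0.512. For PPP1CB the shares were 20.52% ± 0.941 and 22.0% ± 0.614. The order of the 3 genes was thus CA, CC, CB in control libraries and CA, CB, CC in knockdown libraries. The sum of the 3 genes per kilobase in sh-IRF1 was 76.5% of the control mean. This sum was 70.1% with the longest transcript, 71.6% with no division by length and 76.5% with the canonical transcript as the length. Exon length also decides the shares of the 3 genes and part of their order. With the longest transcript, PPP1CC led in control libraries at 42.03% against 40.4% for PPP1CA. It then stayed above PPP1CB in knockdown libraries, at 23.8% against 20.6%. With no division by length, PPP1CC also led in control libraries, at 36.9% against 36.0% for PPP1CA. With the canonical transcript as the length, PPP1CC held 31.9% of the control sum and 16.5% of the knockdown sum, above PPP1CB in both groups at 12.2% and 13.05%. This length was added after the data were seen. Under each length tried, the PPP1CC share was lower and the PPP1CA share higher in sh-IRF1. A gene's length is the same in all 4 libraries, so these directions follow from the fold changes and add no support to them. PPP1CA itself was at 96.4% of its control mean.

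The inhibitors and the early binding partners differed in direction. PPP1R2 (ENSG00000184203, chr3:195514428-195543386, minus strand) encodes inhibitor-2, which occupies the active site and is regulated by GSK3. Its normalized counts were 799.1 and 811.4 in sh-NC and 666.5 and 740.2 in sh-IRF1, with means of 805.3 ± 8.72 and 703.3 ± 52.2 (SD, n = 2). Both knockdown libraries were lower, and they lay 87.3% as high on average as the controls, with a log2 fold change of -0.20 (SE 0.0803). The gap is only modestly larger than the spread of the knockdown libraries, and it ran from -0.27 to -0.12 when 1 library was left out. The related retrogene PPP1R2B had between 1.99 and 6.15 normalized counts.

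PPP1R11 (ENSG00000204619, chr6:30066709-30070333, plus strand) encodes inhibitor-3, which forms a complex with the catalytic subunit and SDS22. In sh-NC it had 765.2 and 714.9 normalized counts, and in sh-IRF1 959.9 and 912.6, with means of 740.1 ± 35.6 and 936.2 ± 33.4 (SD, n = 2). Knockdown libraries were both higher, at 127% of the control mean, and the log2 fold change was 0.34 (SE 0.0761). PPP1R7 (ENSG00000115685, chr2:241149576-241183652, plus strand) encodes SDS22, a leucine-rich repeat protein that holds newly made PP1. Its normalized counts were 1266 and 1179 in sh-NC and 1398 and 1382 in sh-IRF1, with means of 1222 ± 61.3 and 1390 ± 11.0 (SD, n = 2). All knockdown values were above the control values, at 114% of the control mean, a log2 fold change of 0.19 (SE 0.0620). Leaving out 1 library gave values from 0.13 to 0.24. PPP1R7 shares 17.4% of its exonic bases with PASK on the opposite strand, and PASK had 954.0 and 894.6 normalized counts in sh-NC and 1266 and 1224 in sh-IRF1 (log2 fold change 0.43). Without the use of strand, reads of the shared bases cannot be told apart, and the part of PASK in the difference of PPP1R7 was not tested.

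PPP1R8 and PPP1R10 encode subunits that hold PP1 in the nucleus. NIPP1, the product of PPP1R8 (ENSG00000117751, chr1:27830782-27851676, plus strand), is a nuclear inhibitor that binds phosphorylated splicing factors. PPP1R8 had 1284 and 1367 normalized counts in sh-NC and 1143 and 1013 in sh-IRF1, with means of 1326 ± 58.5 and 1078 ± 91.96 (SD, n = 2). The groups did not overlap, and the knockdown mean was 81.3% of the control mean, with a log2 fold change of -0.30 (SE 0.0668). Of its exonic bases 15.2% lie in a long noncoding RNA on the opposite strand that is not in the table used here. PNUTS, encoded by PPP1R10 (ENSG00000204569, chr6:30600413-30618612, minus strand), works with WDR82 and TOX4 and takes PP1 to RNA polymerase II. PPP1R10 had 2302 and 2458 normalized counts in sh-NC and 2302 and 2178 in sh-IRF1. The upper knockdown library and the lower control library differed by less than 1 normalized count. With means of 2380 ± 110 and 2240 ± 87.2 (SD, n = 2), the log2 fold change was -0.09 (SE 0.0496), a gap similar in size to the spread within each group.

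PPP1R12A (ENSG00000058272, chr12:79773563-79935460, minus strand) encodes MYPT1, the targeting subunit of myosin phosphatase. Its normalized counts were 1689 and 1575 in sh-NC and 1510 and 1526 in sh-IRF1, with means of 1632 ± 81.3 and 1518 ± 11.6 (SD, n = 2). Knockdown libraries stood slightly lower, at 93.0% of the control mean; the gap to the lower control was smaller than the gap between the controls. The log2 fold change was -0.10 (SE 0.0572). PPP1R12A-AS1, which shares 2.85% of the exonic bases, had between 7.19 and 19.9 normalized counts.

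PPP1R27 (ENSG00000182676, chr17:81833492-81835050, minus strand) encodes a small ankyrin-repeat protein first described as a partner of dysferlin. In sh-NC it had 4287 and 4068 normalized counts, and in sh-IRF1 8570 and 8465, with means of 4178 ± 154 and 8517 ± 74.8 (SD, n = 2). Both knockdown libraries were far above both controls, and replicates lay close together. The log2 fold change was 1.03 (SE 0.0354), and 511 of the 14120 genes tested had a higher one. It stayed between 0.99 and 1.07 when any 1 library was left out. No annotated gene shares its exons. Its neighbours, looked up after its values were seen, lie close by on the same strand. MCRIP1, 189 bases away on the lower-coordinate side, had 500.6 and 594.7 normalized counts in sh-NC and 524.2 and 531.3 in sh-IRF1, and its groups overlapped. P4HB, a subunit of protein disulfide isomerase and prolyl hydroxylase, lies 8108 bases upstream and had 22698 and 21830 normalized counts in sh-NC and 27815 and 27547 in sh-IRF1. P4HB rose (log2 fold change 0.31, SE 0.0243, limma, adjusted p = 3.63e-15). Reads from unfinished or extended transcripts of neighbours were not separated from those of PPP1R27, and their part in its counts was not tested.

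In counts over the members, 3 passed an adjusted p of 0.05 upward and 4 downward, against 20.3% and 21.9% of all 14120 genes tested. PPP1R2 did not pass under total-count scaling, at a log2 fold change of -0.15, or with no filter, at -0.20. In both settings 3 members passed downward. Beyond a log2 fold change of 0.5, PPP1R27 was higher and PPP1CC was lower, against 8.27% and 7.56% of all genes. Both knockdown libraries lay above both controls for 3 members and below them for 7, against 34.2% and 35% of all genes. All 10 members passed the filter on low values, and their median log2 fold change was -0.10, against -0.0019 over all genes tested. These counts follow from the choice of genes, and nothing is read from them.

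**Figure D2:**
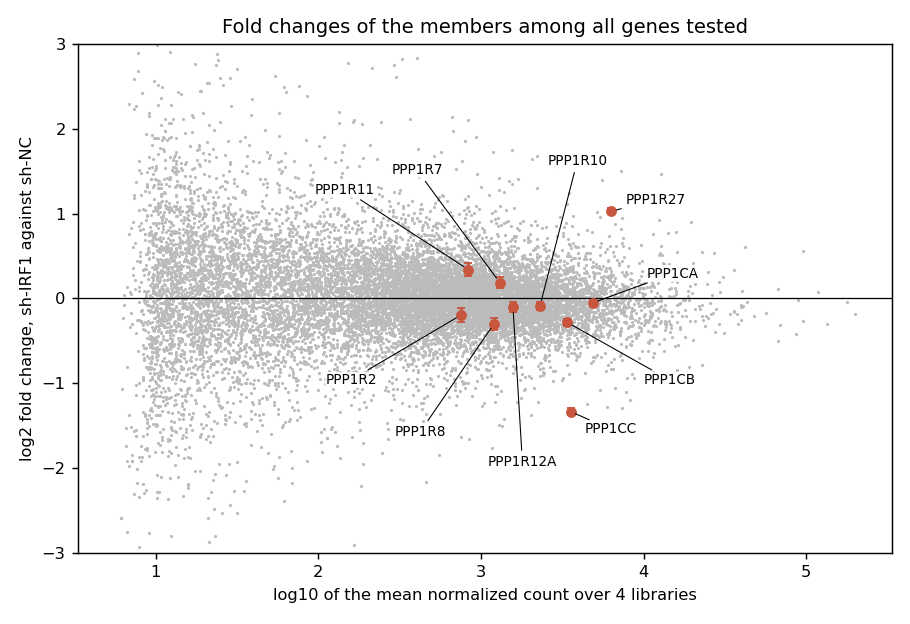
Difference between the groups as log2 fold change (y axis, positive where sh-IRF1 was higher) against the log10 of the mean normalized count over the 4 libraries (x axis), with every tested gene in grey and the PP1 genes in red with their SE. PPP1R27 at 1.03 and PPP1CC at -1.33 stand outside most genes of similar level, and 8 members lie within the grey band. The 27 tested genes beyond 3 in either direction are not drawn.

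Levels of the 10 genes were compared per kilobase of exon. In sh-NC the order of normalized counts per kilobase was PPP1R27 (2883), PPP1CA (1218), PPP1CC (737.7), PPP1CB (505.0), PPP1R8 (470.9), PPP1R10 (457.5), PPP1R7 (323.3), PPP1R11 (304.8), PPP1R2 (157.2) and PPP1R12A (137.6). The ranges of PPP1R8 and PPP1R10 overlapped, as did those of PPP1R7 and PPP1R11, and the other neighbours in this order were apart. PPP1CC moved from the third place in sh-NC to the eighth in sh-IRF1, at 292.4 per kilobase. In sh-IRF1, PPP1R27 led with 5878 per kilobase, followed by PPP1CA with 1175. PPP1R10 and PPP1CB overlapped at 430.6 and 414.8, and the range of PPP1R8, with a mean of 382.9, overlapped those of PPP1R11 (385.6) and PPP1R7 (367.6), which were apart from each other. With the canonical transcript as the length, PPP1CC kept the third place in both groups, at 1996 and 791.2 per kilobase. Other places also changed with this length. PPP1R7 then stood above PPP1R8 and PPP1R10 in sh-NC and above PPP1CB in sh-IRF1, at 716.0 against 623.9. PPP1R2 was then last in both groups.

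The genes whose pattern over the 4 libraries was most like that of each catalytic gene were found by the Euclidean distance of centred log2(normalized count + 1), among 4219 genes with a mean of at least 1000. For PPP1CC these were DDIT4 (distance 0.0457) and PIM1 (0.0598). DDIT4 had 2962 and 2922 normalized counts in sh-NC and 1148 and 1120 in sh-IRF1. The pattern of PPP1CB was nearest to PSME4 (0.00557) and IRAK3 (0.0190), and that of PPP1CA to ARF1 (0.0137) and TTC7A (0.0146). The distance has 4 points behind it, which share the scaling of their libraries, and is a description only.

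The promoters of 3 genes are shown because these members were furthest apart (PPP1CC and PPP1R27) or held a match (PPP1R11). The windows are from RefSeq on GRCh38.p14, from 250 bases before to 50 bases after the start, in the direction of the gene. Windows were found for 9 of the 10 members. Motifs were searched on both strands: an IRF element as GAAANNGAAA, which 3.57% of 35116 windows held, an ETS core as CCGGAAG (10.3%), an E-box as CACGTG (7.26%) and a cAMP response element as TGACGTCA (1.85%). Capitals mark the matches.
PPP1CC (chr12:110742842-110743141): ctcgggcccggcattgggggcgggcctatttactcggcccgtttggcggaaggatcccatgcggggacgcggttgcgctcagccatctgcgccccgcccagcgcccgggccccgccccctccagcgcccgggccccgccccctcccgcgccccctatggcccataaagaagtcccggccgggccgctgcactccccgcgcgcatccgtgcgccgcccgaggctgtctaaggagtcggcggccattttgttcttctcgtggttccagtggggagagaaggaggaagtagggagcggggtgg
PPP1R27 (chr17:81835001-81835300): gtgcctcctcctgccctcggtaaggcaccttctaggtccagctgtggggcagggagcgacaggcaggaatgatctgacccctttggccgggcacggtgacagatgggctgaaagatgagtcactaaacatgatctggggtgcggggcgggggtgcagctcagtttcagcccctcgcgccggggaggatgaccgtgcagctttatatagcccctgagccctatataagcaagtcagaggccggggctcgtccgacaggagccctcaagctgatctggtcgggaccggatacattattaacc
PPP1R11 (chr6:30066948-30067247): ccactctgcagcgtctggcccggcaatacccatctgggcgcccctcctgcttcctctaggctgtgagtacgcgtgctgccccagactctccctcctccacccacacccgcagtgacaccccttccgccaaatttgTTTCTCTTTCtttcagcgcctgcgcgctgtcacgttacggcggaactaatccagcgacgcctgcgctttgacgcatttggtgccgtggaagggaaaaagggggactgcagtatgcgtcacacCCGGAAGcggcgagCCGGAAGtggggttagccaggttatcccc
The PPP1R11 window held 1 match to the IRF element, on the opposite strand to the gene, and 2 to the ETS core. The windows of the other 8 members searched held none of the 4 motifs. The PPP1CC window had a GC content of 72.3% with 34 CpG, and that of PPP1R27 60.3% with 15 CpG. Over all windows of the members the GC content ran from 27.7%, in 1 of the windows of PPP1R12A, to 76.7%, in 1 of the windows of PPP1CB, against a median GC content of 58.7% over all windows. A match is a run of letters and says nothing of binding.

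Beyond the members, the table held 26 other PPP1R genes, and 20 of them passed the filter on low values. Of these, 8 rose and 3 fell (limma, adjusted p under 0.05 over all genes), and 9 did not pass the test, beside 20.3% rising and 21.9% falling among all genes. Their median log2 fold change was 0.19, against -0.0019 over all genes, and 4 passed a log2 fold change of 0.5, 3 upward and 1 downward. PPP1R16B, a membrane-bound relative of MYPT1, had 889.4 and 984.0 normalized counts in sh-NC and 1537 and 1628 in sh-IRF1 (log2 fold change 0.76, SE 0.0654, adjusted p = 1.34e-13). PPP1R12B encodes MYPT2, another myosin targeting subunit. It had 463.7 and 480.7 in sh-NC and 806.7 and 807.7 in sh-IRF1 (0.77, SE 0.0868, adjusted p = 2.83e-10). Both genes were higher in both knockdown libraries, and PPP1R12A of the same family had a log2 fold change of -0.10. PPP1R3E, a glycogen targeting subunit, rose by 0.56 (SE 0.170, adjusted p = 0.00611), and this call was lost without sh-NC replicate 2, at 0.34, and without sh-IRF1 replicate 1, at 0.46. Without sh-IRF1 replicate 1, 4 in place of 8 genes of the list rose.

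PPP1R14C, an inhibitor whose action is raised by protein kinase C, had 256.4 and 226.0 normalized counts in sh-NC and 139.3 and 143.4 in sh-IRF1 and fell (log2 fold change -0.76, SE 0.157, adjusted p = 7.75e-05). PPP1R16A, another MYPT relative, fell by 0.45 on the log2 scale (SE 0.0835, adjusted p = 1.38e-05). The subunits that direct PP1 to eIF2 alpha went opposite ways, and are named after their values were seen. PPP1R15A, the stress-induced GADD34, rose from 1227 ± 61.3 to 1724 ± 72.2 normalized counts (SD, n = 2, log2 fold change 0.49, adjusted p = 2.35e-09). PPP1R15B, the constitutive CReP, fell from 3414 ± 113 to 2910 ± 29.1 (log2 fold change -0.23, adjusted p = 1.92e-05).

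**Figure D3:**
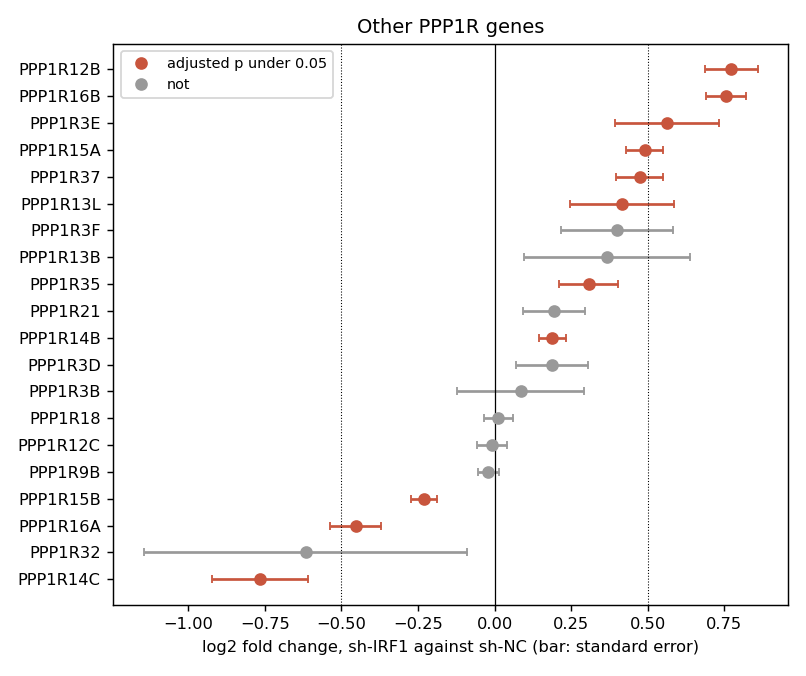
Log2 fold change with SE of the 20 other PPP1R genes that passed the filter, sh-IRF1 against sh-NC, red for an adjusted p under 0.05. PPP1R12B (0.77) and PPP1R16B (0.76) are at the top and PPP1R14C (-0.76) is at the bottom, and dotted lines mark 0.5 in either direction.

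Of 20 PP1 partners without a PPP1R symbol, all tested, 3 rose and 8 fell, beside 20.3% and 21.9% of all genes, and 9 did not pass the test. The median log2 fold change was -0.10. SHOC2, which with MRAS and PP1 forms a RAF phosphatase, fell from 2089 ± 18.6 to 1189 ± 27.5 normalized counts (SD, n = 2, log2 fold change -0.81, adjusted p = 9.81e-17). WDR82, the partner of PNUTS, fell by 0.54 on the log2 scale (adjusted p = 2.72e-15), while TOX4 of the same complex, named after its values were seen, had a log2 fold change of 0.05 and PPP1R10 one of -0.09. The actin-binding PHACTR2 fell by 0.58 (adjusted p = 1.72e-04) and PHACTR3 by 0.56 (adjusted p = 0.0400). The call of PHACTR2 was lost without sh-NC replicate 2, at -0.32. That of PHACTR3 was lost without sh-NC replicate 2, at -0.31, without sh-IRF1 replicate 2, at -0.33, under total-count scaling, at -0.52, and with no robust shrinkage, at an unchanged -0.56. MKI67, which encodes Ki-67, rose by 0.15 (SE 0.0289, adjusted p = 1.90e-05).

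Of 35 listed genes of other serine/threonine phosphatases of the PPP family, 33 were in the table and 31 were tested. Of these 5 rose, 15 fell and 11 did not pass the test, beside 20.3% rising and 21.9% falling among all genes. The median log2 fold change was -0.19. The share over all genes, here and for the other lists, was not matched for level. Genes of low level had larger SEs, such as 0.609 for PPP2R3A against 0.0330 for PPP2R1A, so a call is harder to reach for them. PPP3R1, the regulatory subunit of calcineurin, fell from 2624 ± 143 to 1618 ± 73.8 normalized counts (SD, n = 2, log2 fold change -0.70, adjusted p = 1.53e-15). PPP4R1, a subunit of PP4, fell by 0.53 (adjusted p = 5.90e-07). PPP2R5B, a PP2A targeting subunit, rose by 0.81 (adjusted p = 9.13e-06), and PPP2R1A, the PP2A scaffold, rose by 0.28 (adjusted p = 6.68e-10).

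Of 16 kinases that act on PP1 subunits or share their substrates, 6 rose, 5 fell and 5 did not pass the test, beside the same 20.3% and 21.9%. ROCK1, which phosphorylates MYPT1, fell by 0.55 (adjusted p = 1.01e-12), and PAK1 rose by 0.53 (adjusted p = 8.16e-11). Their median was 0.08 on the log2 scale, which became -0.01 without sh-IRF1 replicate 2. Of 7 tested genes of the myosin light chain pathway, 3 rose, 2 fell and 2 did not pass the test, again beside 20.3% and 21.9%. Their median was 0.03 on the log2 scale, and between 0.01 and 0.30 with 1 library left out. The nonmuscle myosin heavy chain MYH10 rose from 88.8 ± 20.97 to 226.3 ± 0.695 normalized counts (SD, n = 2, log2 fold change 1.36, adjusted p = 3.08e-08) and MYH9 rose by 0.34 (adjusted p = 1.56e-17). RHOA, the GTPase upstream of ROCK1, fell by 0.21 (adjusted p = 9.11e-08).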

How the data were processed

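RNA was sequenced from 2 sh-NC and 2 sh-IRF1 libraries of MV4-11 cells. The deposited table holds a normalized signal, in which the authors had scaled gene reads by the size factor of their library. All values were within 4.5e-05 of a whole multiple of the value of 1 read. The submitters' processing notes name HISAT2 2.0.5 and hg38. The counting tool, its annotation and whether strand was used are not given in the sources used here. The table had 0 other columns of per-sample values.

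The 14120 of 23622 genes that reached 10 in 2 or more libraries were fitted with limma 3.58.1 in R 4.3.3 on log2(value + 1), with a trend and robust shrinkage (43 prior degrees of freedom) and Benjamini-Hochberg adjustment over all of them. This scale understates the change of low genes. The smallest p of an exact two-sided permutation test in this design is 0.33. Members were described without p-values, and how many passed the threshold is given only beside the share of all genes. The fit was also run on simulated data with known changes, and the outcome is not reported here. Those data had the same spread setting for every gene and changes only in genes of higher level. Nothing about the p-values of these libraries is read from them.

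Symbols were matched for 23456 genes. Positions, lengths and overlaps came from GENCODE on GRCh38, and promoters from RefSeq. Members and lists were chosen with earlier results of these data known. Named genes were, beside members and IRF1, those of each list past an adjusted p of 0.05 and a log2 fold change of 0.5, and the gene of smallest p in each direction. Alternatives covered scaling, filter, pseudocount (0.5 and 5), shrinkage, fold threshold, gene length, a replicate block and each library left out. Replicate libraries differed by more than sampling noise (chi-square per gene 2.99 and 2.48). Part of the list of markers of other cell types is not reported here.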

Additional observations from a re-analysis of the deposited data

How the results depend on the processing

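Of 644 recomputed values, 603 were judged the same, 15 lost the threshold and 26 moved, and 0 called values reversed. Single genes were judged on direction and threshold, medians on sign, counts on a set ratio to the main count, and shares on the SD of the main share. A count judged the same can therefore hide a lost call: that of members past the threshold upward was judged the same at 2 as at 3. Among medians, which carry no call, that of the kinases changed sign without sh-IRF1 replicate 2 (-0.01), and that of all genes, -0.0019, changed sign under total-count scaling (0.04), with no filter (0.01) and without sh-NC replicate 1 or sh-IRF1 replicate 2. The cause was not tested. With 1 library left out, PPP1R2 differed by -0.27 to -0.12 and PPP1R7 by 0.13 to 0.24 on the log2 scale, and between 2 and 3 members were past the threshold upward and between 3 and 4 downward. Leaving out 1 library left between 4 and 8 other PPP1R genes higher. At a minimum log2 fold change of 1, 389 genes were higher and 318 lower, in place of 1168 and 1067.

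Catalytic shares depended on length. With the longest transcript, sh-NC and sh-IRF1 shares were 40.4% and 55.7% for PPP1CA, 17.5% and 20.6% for PPP1CB and 42.03% and 23.8% for PPP1CC. With the canonical transcript, chosen after seeing the data, they were 55.9% and 70.4%, 12.2% and 13.05%, and 31.9% and 16.5%. With no division by length they were 36.0% and 48.5%, 27.1% and 31.1%, and 36.9% and 20.45%.

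The labels give libraries of the same number nothing in common but that number, and whether they share a culture or batch is not stated. Their deviations from the group means had a correlation of -0.015 across genes, which are not independent replicates. This value cannot show that the libraries were unpaired. With the replicate block, 2903 genes passed an adjusted p of 0.05 upward and 3147 downward, in place of 2861 and 3092, and 3 members were higher and 4 lower, as without it. The planned edgeR and DESeq2 alternatives were not run, because the deposited values are normalized and sh-IRF1 replicate 1 did not pass a check of their unit. In that library the value of 1 read was 0.995, too close to 1 for the check. This is no defect of the library, whose values were whole multiples of 1 read as in the others. Reads taken as such multiples were used for library totals, the scaling alternatives and the chi-square values. At 17635908 reads or more per library, genes that did not reach 10 normalized counts in 2 libraries were not tested, among them 6 of the 26 other PPP1R genes.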
